A study of Homo sapiens with 8 samples.

Results

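The collagen alpha-chain genes were described in MRC5 cells, an established line of human diploid lung fibroblasts, after exposure to 8-oxoguanine, the free oxidised guanine base. A gene was taken as a member when its single symbol in the platform annotation was COL, a number, A and a number, and each gene was read from its brightest probe set by mean log2 signal. This gave 32 collagen genes of 11963 genes with a single symbol, all of them on the 6 h arrays and 24 of them also on the 12 h arrays. By collagen type 9 were fibrillar, 8 belonged to basement membranes and 15 to other types. RefSeq lists 44 collagen genes of this name, and the other 12 were not analysed here.

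At 12 h the groups were cells given 10 µM 8-oxoguanine, with 3 arrays, and cells mock treated with solvent alone, with 3 arrays. At 6 h there was 1 array of cells given 10 µM 8-oxoguanine and 1 array of mock-treated cells. All groups were the same untransformed cell line in the same serum-containing medium. The 12 h arrays carry that time in their labels, which was followed, but the treatment text common to all samples speaks of 6 h. The 12 h arrays of a group are called technical replicates by extract. No label ties these extracts to cultures of their own, so a p-value here reflects how far extracts differed, which may be technical variation alone. Precision is limited by how many arrays there were. In bulk RNA of this kind, fewer cells that express a gene and less of its RNA per cell cannot be told apart.

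Collagens are matrix proteins whose alpha chains wind into a triple helix in the endoplasmic reticulum, where prolines and lysines are hydroxylated before the helix closes. Fibrillar procollagens are secreted, trimmed of their propeptides and cross-linked into the fibrils that give connective tissue its tensile strength, whereas type IV chains form the sheet-like network of basement membranes. Lung fibroblasts are a main source of the fibrillar types I and III and of the beaded filaments of type VI.

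The stretches before the starts of 4 collagen genes are shown for their gene structure: COL15A1 and COL13A1 are the members that passed the test at 12 h, and COL4A1 and COL4A2 are chains of the same trimer that start back to back. Nothing in the data tests these stretches. All are from RefSeq on GRCh38.p14 and run 5′ to 3′. Capitals mark matches to the motifs GGGCGG (the GC box), CCAAT (the CCAAT box), TATAAA (the TATA box) and TGANTCA (the AP-1 site), searched on both strands with overlaps counted. The 250 bases before the start of COL15A1 lie at chr9:98943657-98943906, on the plus strand, and hold 76.8% G and C.
COL15A1: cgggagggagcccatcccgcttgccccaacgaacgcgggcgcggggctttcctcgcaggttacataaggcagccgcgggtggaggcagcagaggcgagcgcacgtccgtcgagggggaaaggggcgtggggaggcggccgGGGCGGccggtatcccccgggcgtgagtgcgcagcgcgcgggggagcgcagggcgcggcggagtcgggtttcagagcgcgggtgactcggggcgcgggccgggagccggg
The 250 bases before the start of COL13A1 lie at chr10:69801656-69801905, on the plus strand, and hold 64% G and C.
COL13A1: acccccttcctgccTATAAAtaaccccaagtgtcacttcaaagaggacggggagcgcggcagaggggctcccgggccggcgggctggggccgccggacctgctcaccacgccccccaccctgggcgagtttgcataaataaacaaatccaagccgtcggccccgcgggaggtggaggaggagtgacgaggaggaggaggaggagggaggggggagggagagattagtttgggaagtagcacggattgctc
The 126 bases between the starts of COL4A1, on the minus strand, and COL4A2, on the plus strand, lie at chr13:110307158-110307283, hold 80.2% G and C and are given on the strand of COL4A2.
COL4A1-COL4A2: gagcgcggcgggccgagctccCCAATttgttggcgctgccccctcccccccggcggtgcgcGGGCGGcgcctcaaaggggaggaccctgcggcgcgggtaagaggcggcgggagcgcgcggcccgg

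The COL15A1 window held 1 GC box, 110 to 105 bases before the start, and no match to the other motifs. The COL13A1 window held 1 TATA box, 236 to 231 bases before the start, and no match to the others. The stretch shared by COL4A1 and COL4A2 held 1 CCAAT and 1 GC box. Both other gene pairs of type IV also run head to head, with 418 bases between the starts of COL4A4 and COL4A3 on chromosome 2 and 379 between those of COL4A6 and COL4A5 on chromosome X. A match describes letters and no bound factor. RefSeq promoters were matched for 23 of the 32 genes, in 34 windows. A GC box stood in 55.9% of these and in 42.6% of all 35116 promoter windows. For CCAAT the shares were 29.4% and 32%, for the TATA box 17.6% and 10.7%, and for the AP-1 site 2.94% and 6.57%.

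The arrays carried 8746 probe sets at 12 h and 22215 at 6 h, of which 5248 and 11108 passed a filter on dim signals. Array medians lay between 143 and 165. The 7 fibroblast markers on the 12 h arrays all passed the filter, with summed signals of 28204 to 35414 on 8-oxoguanine arrays and 27171 to 34667 on mock arrays, sums made up mostly of VIM and THY1. Of the 7, 3 were called higher (LUM, PDGFRA and PDGFRB) and 1 lower (S100A4), so that 57.1% were called, against 13.2% of all probe sets. Of the markers of other cell types, 1 of 5 epithelial, 1 of 4 endothelial, 0 of 4 blood, 2 of 4 smooth muscle and 2 of 4 cartilage genes passed. The ratio of the 3′ to the 5′ actin probe set, a measure of RNA integrity and labelling, was 1.03, 1.07 and 0.999 on 8-oxoguanine arrays against 0.995, 0.889 and 0.946 on mock arrays at 12 h. These ranges did not overlap, and the part of this difference in any result below was not tested.

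At 12 h, 2 collagen genes passed the test, and they moved in opposite directions. COL15A1, the chain of a proteoglycan that anchors basement membranes to the fibrils beneath, was 2.27-fold higher in 8-oxoguanine cells. COL13A1, a transmembrane collagen of cell adhesion sites, was lower at 0.487-fold. The major fibrillar chains COL1A1, COL1A2 and COL3A1 did not pass the test, with log2 fold changes between -0.12 and 0.17. Of the 24 collagen genes on these arrays 17 passed the filter and were tested, 1 was called higher, 1 lower and 15 were not called, by limma's moderated test at a Benjamini-Hochberg adjusted p under 0.05 over all 5248 probe sets. Over all probe sets tested 13.2% were called in either direction, 6.59% higher and 6.65% lower, and 11.8% of the tested collagens were called, a share near that background. The median log2 fold change of the 17 was -0.11, against 0.0072 over all probe sets, with 6 members above 0 and 11 below.

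The collagen values of the 2 groups did not overlap in 8 of the 17 genes, 2 of them higher in 8-oxoguanine cells (COL15A1 and COL4A5) and 6 lower (COL5A1, COL5A3, COL11A1, COL18A1, COL6A3 and COL13A1). Without overlap stood 33.9% of all probe sets tested, 17.4% higher and 16.5% lower, and 47.1% of the collagens, 11.8% higher and 35.3% lower. After quantile normalization COL11A1 and COL6A3 also passed the test as lower, so that 1 collagen was called higher and 3 lower.

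**Figure D1:**
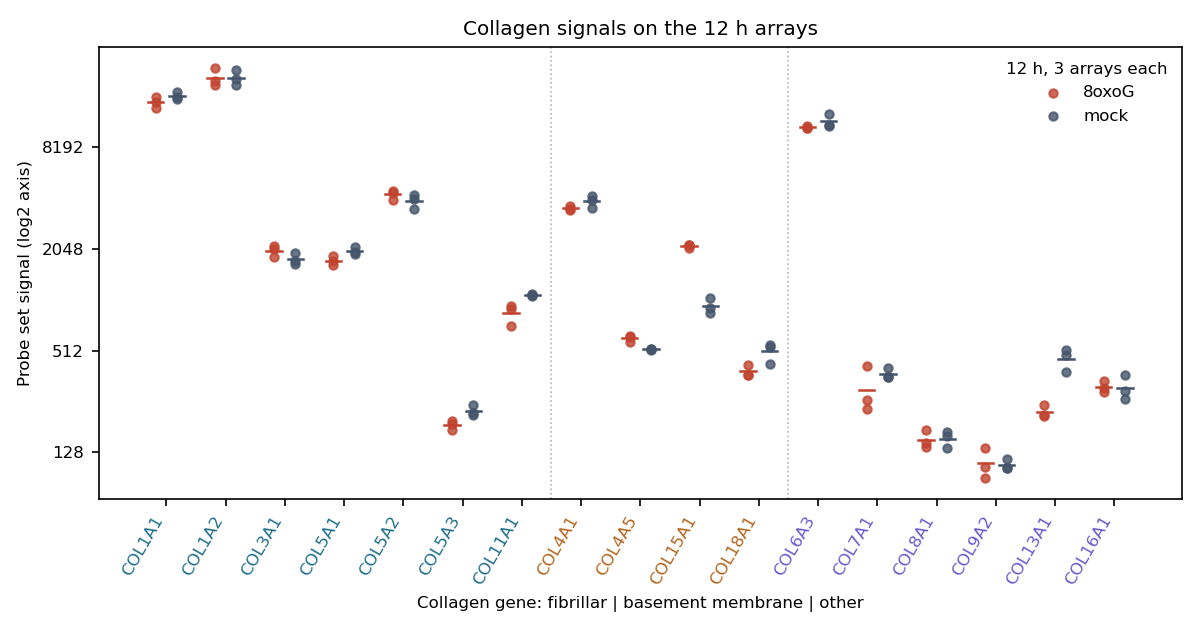
Signal of the 17 collagen genes that passed the filter on the 12 h arrays, on a log2 axis, with 1 point per array and a bar at the mean of 3 arrays, 8-oxoguanine left of mock. COL15A1 and COL13A1 show the widest separation of the groups, while the points of COL1A1, COL1A2 and COL3A1 overlap.

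The fibrillar collagens were represented by 8 genes at 12 h, and none of the 7 that passed the filter was called in either direction by limma. COL5A1 and COL11A1, 2 of the 7, had an unadjusted limma p under 0.05, both lower. The share of all probe sets at that unadjusted limit was not counted, so counts at it, here and below, have no background beside them. Type I collagen, the main fibril of skin, bone and lung interstitium, is a trimer of chains from COL1A1 and COL1A2. COL1A1 read 15208, 14112 and 16363 on the 8-oxoguanine arrays, against 15814, 17508 and 16384 on the mock arrays. The groups overlapped, with a log2 fold change of -0.12 (SE 0.080, 95% interval -0.30 to 0.056, limma adjusted p = 0.355). COL1A2 read 20143, 19196 and 24361 on the 8-oxoguanine arrays, against 19254, 23676 and 20775 on the mock arrays. Its log2 fold change was -0.0026 (95% interval -0.25 to 0.24, limma adjusted p = 0.993), and the sign turned when single arrays were left out. On the third mock array COL1A2 was the brightest probe set of the array. Whether such bright probe sets had reached a ceiling was not tested.

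COL3A1, the single chain of type III collagen in elastic tissues such as lung and vessel wall, read 2040, 2123 and 1827 on 8-oxoguanine arrays and 1930, 1738 and 1670 on mock arrays. The ranges overlapped, and the log2 fold change was 0.17 (95% interval -0.024 to 0.36, limma adjusted p = 0.235). The intervals of the 3 major fibrillar genes thus spanned from -0.30 to 0.36 on the log2 scale, and changes inside it were not resolved at this number of arrays.

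Type V collagen, built in most tissues from chains of COL5A1 and COL5A2, sits inside type I fibrils and sets their diameter. COL5A1 read 1752, 1856 and 1639 on 8-oxoguanine arrays, below the 2118, 1922 and 1958 on mock arrays without overlap, but did not pass the test (log2 fold change -0.19, limma adjusted p = 0.126). Its partner COL5A2 read 4404, 4533 and 4022 on 8-oxoguanine arrays and 4264, 3560 and 4063 on mock arrays, which overlapped (log2 fold change 0.13, limma adjusted p = 0.372). The difference between the 2 chains was not tested. COL5A3, a further type V chain, read 174, 196 and 188 on 8-oxoguanine arrays and 220, 213 and 245 on mock arrays (log2 fold change -0.28, limma adjusted p = 0.219).

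COL11A1, a chain of type XI collagen, which nucleates fibrils in cartilage and is also made by cultured fibroblasts, came closest to the threshold among the fibrillar genes. It read 909, 947 and 719 on 8-oxoguanine arrays, all below the 1076, 1109 and 1095 on mock arrays. Its log2 fold change was -0.36 (SE 0.11, limma adjusted p = 0.0517), and it passed after quantile normalization and with a stricter filter on dim probe sets. COL2A1, the cartilage collagen, was below the filter, at 34, 50.1 and 78.5 on 8-oxoguanine arrays and 64.9, 36.9 and 33.7 on mock arrays.

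Among the basement membrane collagens 6 genes were on the 12 h arrays, 4 passed the filter and 1 was called, COL15A1. It read 2082, 2157 and 2155 on the 8-oxoguanine arrays and 1053, 861 and 912 on the mock arrays. The groups lay far apart, with a log2 fold change of 1.18 (SE 0.086, fold 2.27, 95% interval of the fold 1.99 to 2.60, limma adjusted p = 5.68e-05). It stayed past the threshold in each of 14 other settings, with values from 1.12 to 1.27. COL18A1, the other chain of the multiplexin family and the source of the fragment endostatin, read 370, 423 and 366 on 8-oxoguanine arrays and 541, 430 and 555 on mock arrays. Its groups did not overlap, in the direction opposite to COL15A1, but it was not called (log2 fold change -0.39, limma adjusted p = 0.0652). It was called without mock replicate 2, at -0.51.

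Type IV collagen of most basement membranes is a trimer of COL4A1 and COL4A2 chains, and COL4A1 alone was analysed at 12 h. It read 3706, 3556 and 3482 on 8-oxoguanine arrays and 4018, 3569 and 4233 on mock arrays, with overlap (log2 fold change -0.13, 95% interval -0.31 to 0.040, limma adjusted p = 0.294). COL4A5, whose chain belongs to the specialised networks of kidney, lung and smooth muscle and is mutated in Alport syndrome, read 617, 575 and 627 on 8-oxoguanine arrays, above 521, 521 and 525 on mock arrays (log2 fold change 0.21, limma adjusted p = 0.129). COL4A3 and COL4A4, its partners in the kidney glomerulus, were below the filter, at 31.1 to 55.3 and 3.2 to 6.9 on 8-oxoguanine arrays and 25.4 to 47.6 and 6.7 to 11.7 on mock arrays.

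Of the 10 genes of other collagen types at 12 h, 6 passed the filter and 1 was called, COL13A1. It read 245, 209 and 215 on 8-oxoguanine arrays, below the 519, 480 and 382 on mock arrays. The log2 fold change was -1.04 (SE 0.14, fold 0.487, 95% interval of the fold 0.391 to 0.605, limma adjusted p = 0.00155), and in 14 other settings it stayed past the threshold, between -1.17 and -0.95. COL6A3, the large chain of type VI collagen, which forms beaded filaments around cells, read 10656, 10677 and 10930 on 8-oxoguanine arrays and 11055, 12991 and 10965 on mock arrays. The groups touched without overlap, and the log2 fold change was -0.11 (95% interval -0.29 to 0.067, limma adjusted p = 0.401).

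COL7A1, the anchoring fibril of the skin, read 230, 261 and 414 on 8-oxoguanine arrays and 403, 359 and 357 on mock arrays. The third 8-oxoguanine array stood above all mock arrays and the other two below them, with a log2 fold change of -0.35 (limma adjusted p = 0.277). Without that array it was -0.60 and passed the test. COL8A1, COL9A2 and COL16A1 had log2 fold changes of -0.02, 0.01 and 0.03, whose sign turned in some settings. The other 4 genes of this class, COL9A1, COL9A3, COL10A1 and COL19A1, were below the filter. All 7 collagens below it read between 3.2 and 78.5 on every array, under the filter's mean signal of 93.9, while the dimmest member above it, COL9A2, read 105, 90 and 136 on 8-oxoguanine arrays and 116, 104 and 103 on mock arrays.

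**Figure D2:**
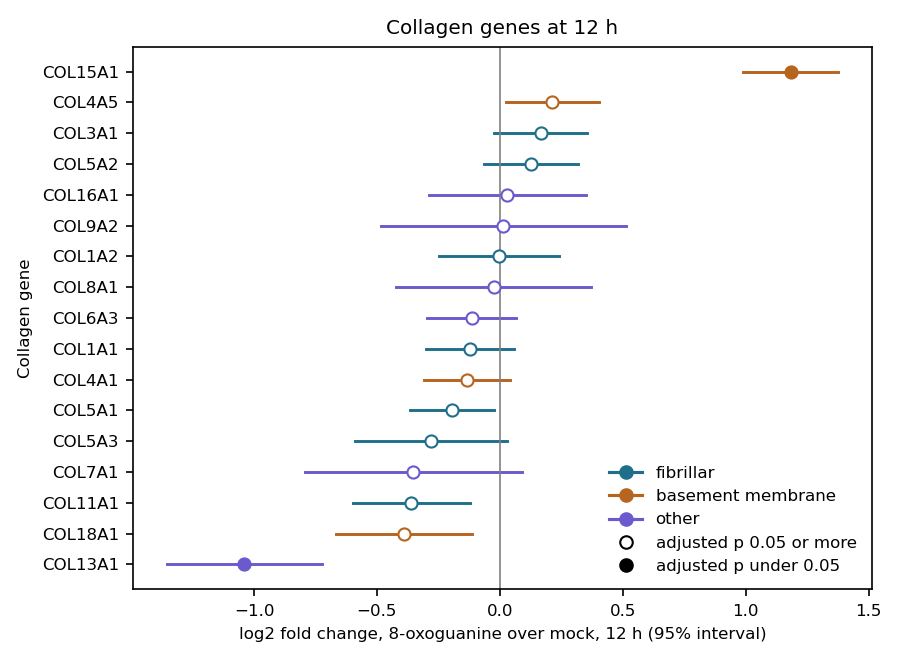
Log2 fold change, 8-oxoguanine over mock at 12 h, of the 17 collagen genes tested, sorted by size and coloured by class, with 95% intervals from limma over 3 arrays per group. The filled points are COL15A1 at 1.18 and COL13A1 at -1.04, and the open points, from -0.39 to 0.21, did not pass the test.

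The genes that fold, cut, link, bind, break down and control collagen were read from 7 lists of 78 genes, of which 56 were on the 12 h arrays and 47 passed the filter. Of these, 5 were called higher, 12 lower and 30 were not called. As shares these were 10.6% and 25.5%, against the 6.59% and 6.65% of all probe sets given above. The median log2 fold change over the 47 was -0.04. The shares called in either direction were 41.7% for hydroxylation and folding, 33.3% for propeptide removal, and 50% each for cross-linking and matrix partners. They were 20% for receptors, 22.2% for breakdown and 40% for transcription and TGF-beta, against 13.2% of all probe sets. With 3 to 12 tested genes per list, single genes move these shares widely.

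Enzymes and chaperones of hydroxylation and folding fell in 5 of 12 tested members (41.7%, against 6.65% of all probe sets called lower). None was called higher by limma (0 at an unadjusted p under 0.05), and the median log2 fold change of the list was -0.27. PLOD3, which hydroxylates lysines and adds sugars to them, read 2968, 2954 and 2730 on 8-oxoguanine arrays and 3981, 3832 and 4061 on mock arrays (log2 fold change -0.46, limma adjusted p = 0.00238). P4HA2, a catalytic subunit of prolyl 4-hydroxylase, read 3328, 3161 and 3185 on 8-oxoguanine arrays and 4272, 4176 and 4670 on mock arrays (log2 fold change -0.44, limma adjusted p = 0.00363). These 2 genes were lower on every 8-oxoguanine array and kept their calls in 14 other settings.

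P3H4, a scaffold of the lysyl hydroxylation complex, read 237, 192 and 244 on 8-oxoguanine arrays and 346, 343 and 337 on mock arrays (log2 fold change -0.62, limma adjusted p = 0.0136). Its adjusted p was 0.0507 without 8-oxoguanine replicate 2. SEC23A, a coat protein of the vesicles that carry procollagen out of the endoplasmic reticulum, had a log2 fold change of -0.37 (limma adjusted p = 0.0281) but lost its call when any one of 8-oxoguanine replicates 1 and 2 and mock replicates 1 and 2 was left out. P4HA1, the other main catalytic subunit, was called at -0.28 (limma adjusted p = 0.0402) and lost the call when any one array other than mock replicate 2 was left out. The collagen chaperone SERPINH1 (HSP47) had a log2 fold change of -0.29 and did not pass (limma adjusted p = 0.066), while P4HB, the shared subunit of the prolyl hydroxylases, was at -0.02 and the lysyl hydroxylase PLOD1 at -0.0015.

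Of the genes of propeptide removal 3 passed the filter and 1 rose. PCOLCE, which enhances the cutting of the C-propeptide, read 2285, 2455 and 2508 on 8-oxoguanine arrays and 1739, 1747 and 1700 on mock arrays (log2 fold change 0.48, limma adjusted p = 0.00195). BMP1, the protease it enhances, did not pass at -0.29 (limma adjusted p = 0.066). Of 4 cross-linking genes 2 fell. The transglutaminase TGM2 had a log2 fold change of -0.43 (limma adjusted p = 0.0153, and 0.0597 with no intensity trend). LOX, the lysyl oxidase that starts collagen cross-links, read 3716, 3756 and 3743 on 8-oxoguanine arrays and 4351, 4357 and 4380 on mock arrays. Its change was -0.22 (limma adjusted p = 0.0375), and this call too was lost when any one array other than mock replicate 2 was left out.

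Of 4 matrix partners of collagen 2 rose. Lumican (LUM), a proteoglycan that spaces fibrils, read 284, 313 and 293 on 8-oxoguanine arrays and 133, 176 and 121 on mock arrays (log2 fold change 1.07, limma adjusted p = 0.0034). Thrombospondin-2 (THBS2), whose loss gives irregular fibrils in mice, read 927, 794 and 893 on 8-oxoguanine arrays and 490, 647 and 558 on mock arrays (log2 fold change 0.63, limma adjusted p = 0.00666). Both stayed past the threshold in every other setting in which they were tested. Of 5 collagen receptors 1 fell, ITGA2, the alpha-2 integrin subunit, at -0.76 (limma adjusted p = 0.0192), a call that did not hold when either of 8-oxoguanine replicates 1 and 2, or either of mock replicates 2 and 3, was left out.

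Of 9 genes of collagen breakdown 1 rose and 1 fell. CTSK, cathepsin K, read 774, 762 and 734 on 8-oxoguanine arrays and 485, 462 and 516 on mock arrays (log2 fold change 0.63, limma adjusted p = 0.00152). MMP1, the interstitial collagenase that cuts fibrillar collagen, read 1804, 1789 and 1944 on 8-oxoguanine arrays and 3045, 2561 and 2850 on mock arrays (log2 fold change -0.61, limma adjusted p = 0.00145). The 2 proteases thus moved in opposite directions, each without overlap.

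Of 10 genes of transcription and TGF-beta signalling, the pathway best known for inducing collagen genes in fibroblasts, 1 rose and 3 fell. The ligand TGFB1 read 1023, 993 and 978 on 8-oxoguanine arrays and 1361, 1466 and 1419 on mock arrays (log2 fold change -0.50, limma adjusted p = 0.00195). The type I receptor TGFBR1 was higher by 0.57 (limma adjusted p = 0.00375), and the type II receptor TGFBR2 was lower at -0.35 (limma adjusted p = 0.00792). SMAD7, a target and inhibitor of the pathway, read 189, 201 and 193 on 8-oxoguanine arrays and 388, 382 and 396 on mock arrays (log2 fold change -1.0, limma adjusted p = 0.000606). The list was thus mixed, with 6 members above 0 and 4 below, and a median log2 fold change of 0.13. The ligands TGFB2 and TGFB3 were at 0.34 and 0.30 and were not called. Whether signalling through the pathway changed was not tested, and the type I collagen chains did not pass the test.

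**Figure D3:**
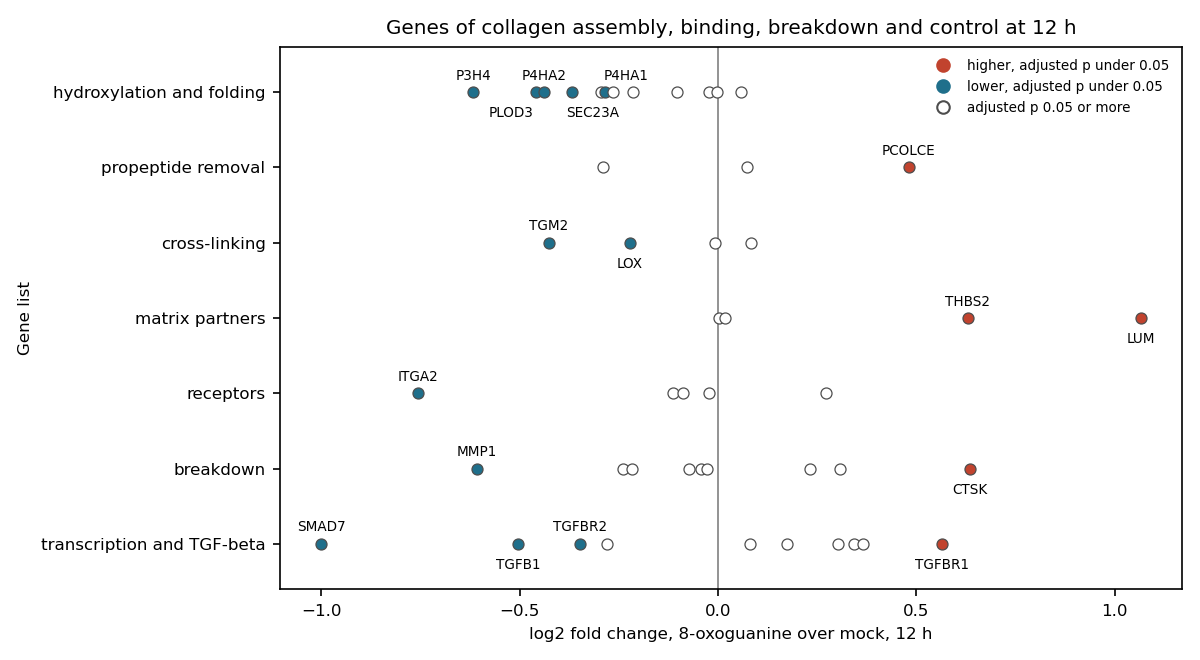
Log2 fold change, 8-oxoguanine over mock at 12 h, of the 47 tested genes in 7 lists of collagen assembly, binding, breakdown and control, 1 point per gene from 3 arrays per group. The 17 named, filled points passed the test, 5 higher and 12 lower, and 5 of the lower ones lie in the row of hydroxylation and folding.

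Markers of fibroblasts and of other cell types also passed the test at 12 h. The fibroblast receptor genes PDGFRA and PDGFRB were higher, with log2 fold changes of 0.36 and 0.30 (limma adjusted p = 0.022 and 0.0446), and S100A4 was lower at -0.58 (limma adjusted p = 0.00302). The call of PDGFRA was lost without 8-oxoguanine replicate 2, mock replicate 1 or mock replicate 3, and that of PDGFRB when any one array other than mock replicate 2 was left out. The epithelial keratin KRT19 was lower in 8-oxoguanine cells (log2 fold change -1.27), and the summed epithelial markers were 153 to 201 on 8-oxoguanine arrays and 364 to 412 on mock arrays, with the other 4 of 5 markers below the filter. The smooth muscle gene SMTN was lower (log2 fold change -0.76), and the summed smooth muscle markers were 1221 to 1412 on 8-oxoguanine arrays against 1697 to 1881 on mock arrays. The cartilage markers summed to 1228 to 1340 on 8-oxoguanine arrays and 1383 to 1762 on mock arrays, but neither tested one passed (SOX9, limma adjusted p = 0.158, and ACAN, 0.445). The endothelial sums, 175 to 245 on 8-oxoguanine arrays and 219 to 241 on mock arrays, overlapped, as did the blood sums, 184 to 282 on 8-oxoguanine arrays and 83.3 to 265 on mock arrays. The part of these markers in the collagen results was not tested.

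At 6 h there was 1 array per treatment, so the values have no replicate check and no test was made. Of the 32 collagen genes 23 passed the filter, and a ratio of 1.5-fold or more was used as a descriptive limit. As deposited, 6 collagens were higher in 8-oxoguanine cells by this limit, 1 was lower and 16 lay within it. The 6 were 26.1% of the collagens that passed, against 3.32% of all 11108 probe sets, and the 1 lower was 4.35% against 5.44%. After quantile normalization no collagen was higher by this limit and 1 was lower, against 2.12% and 3.85% of all probe sets. The median log2 ratio of the 23 was 0.28 as deposited and 0.053 after quantile normalization, against -0.032 and 0.020 over all probe sets. Median centring put the median of all probe sets at 0.083, and 7 collagens were then higher by the limit and 1 lower.

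The 6 collagens higher by the limit were the major fibrillar and type VI chains. COL1A1 had a signal of 16418 in 8-oxoguanine cells and 8723 in mock cells (log2 ratio 0.91, and 0.05 after quantile normalization). COL1A2 had 19426 in 8-oxoguanine cells and 9430 in mock cells (1.04, and 0.09). COL3A1 had 10838 in 8-oxoguanine cells and 6712 in mock cells (0.69, and 0.08). All 3 lost nearly all of their ratio once both arrays were given the same distribution of signals.

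Of type VI, COL6A1 had 15661 in 8-oxoguanine cells and 8458 in mock cells (log2 ratio 0.89, and 0.06 after quantile normalization). COL6A2 had 12512 in 8-oxoguanine cells and 7460 in mock cells (0.75, and 0.01), and COL6A3 had 13407 in 8-oxoguanine cells and 6485 in mock cells (1.05, and 0.42). The brightest probe sets of the 3 chains of this trimer thus had ratios of 0.75 to 1.05 as deposited, and COL6A3 kept the highest of them after normalization. The dimmer probe sets above the filter had lower ratios as deposited, 0.12 to 0.49 for COL6A1 and -0.06 for COL6A2. COL14A1, a collagen that sits on fibril surfaces, had 120 in 8-oxoguanine cells and 204 in mock cells (-0.76, and -0.65), and its other probe sets, below the filter, had ratios of -0.38 and -0.22. Its mean signal of 157 was close to the filter limit of 148, and only its mock signal lay above that limit. COL14A1 thus entered the count of lower genes through the mock array.

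The ratio at 6 h went with the signal over all probe sets. The brightest probe set had 22762 on the 8-oxoguanine array and 10699 on the mock array. The 241 probe sets with a mean signal of 8000 or more had a median log2 ratio of 0.75, with their 10th and 90th percentiles at 0.52 and 1.03, and the 6 collagens named as higher were the 6 collagens in this range, at 0.69 to 1.05. The 498 probe sets between 4000 and 8000 had a median of 0.33, and the 4 collagens among them, COL4A1, COL4A2, COL5A1 and COL5A2, had 0.28 to 0.50. Probe sets between 148, the filter limit, and 500 had a median of -0.088. Across the 23 collagen genes, which share both arrays and are not independent replicates, the ratio and the log2 signal had a Pearson correlation of 0.858 and a Spearman correlation of 0.883 as deposited, and 0.355 and 0.396 after quantile normalization.

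**Figure D4:**
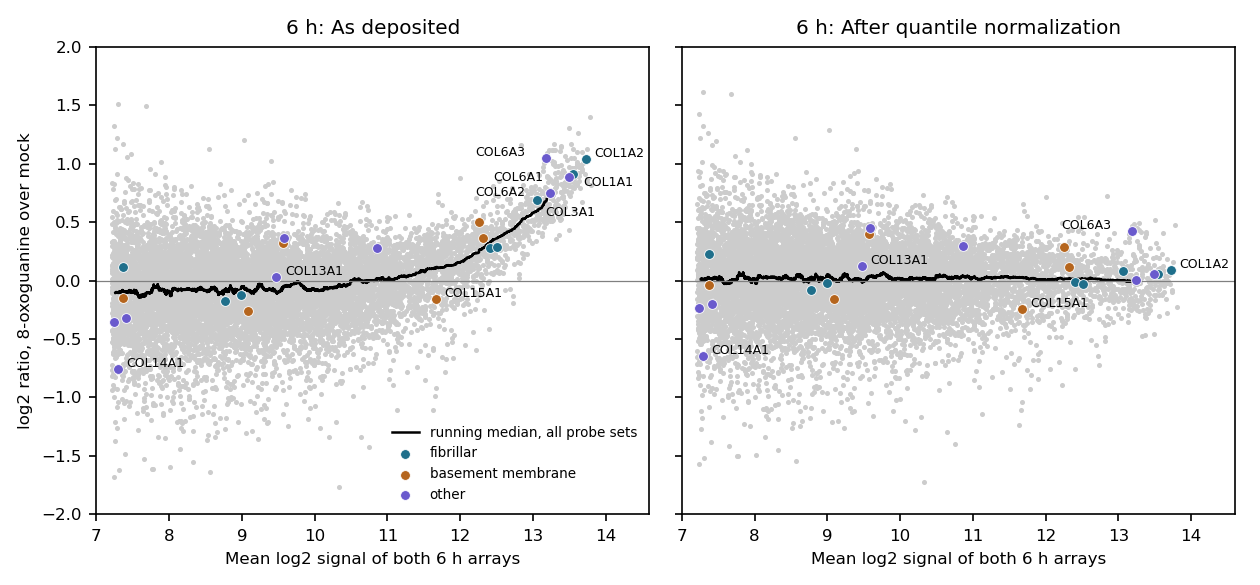
Log2 ratio at 6 h, 8-oxoguanine over mock, 1 array each, against the mean log2 signal of both arrays, as deposited (left) and after quantile normalization (right), with the kept probe sets in grey, their running median as a line and the 23 collagen genes coloured by class. As deposited the line climbs with signal and the 6 brightest collagens, at 0.69 to 1.05, lie near it or above it, while after normalization COL6A3 at 0.42 is the highest of the 6.

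The basement membrane chains lay within the limit at 6 h. COL4A1 had 5787 in 8-oxoguanine cells and 4508 in mock cells (log2 ratio 0.36, and 0.12 after quantile normalization), and COL4A2, which shares the stretch printed above, had 5809 in 8-oxoguanine cells and 4098 in mock cells (0.50, and 0.29). The dimmer probe set of COL4A2 had 0.08 as deposited and 0.004 after quantile normalization, while that of COL4A1 had 0.38 both ways. COL4A5 and COL4A6, another head-to-head pair, had ratios of -0.26 and -0.15. COL15A1 had 3084 in 8-oxoguanine cells and 3451 in mock cells (-0.16, and -0.25), and COL18A1 had 0.32.

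Of the other fibrillar chains COL5A1 and COL5A2 had ratios of 0.28 and 0.29, which after quantile normalization were -0.01 and -0.03. The probe set read for COL5A1 at 12 h was a dimmer one, which at 6 h had -0.18. COL5A3, COL11A1 and COL11A2 had -0.18, -0.12 and 0.11. COL13A1 had 719 in 8-oxoguanine cells and 704 in mock cells (0.03). The network-forming pair COL8A1 and COL8A2 had -0.32 and -0.35, both from signals close to the filter limit of 148. COL8A1 had 152 in 8-oxoguanine cells and 190 in mock cells, and COL8A2 had 134 in 8-oxoguanine cells and 171 in mock cells. Only the mock signal of COL8A2 lay above the limit, so that it passed through the mock array. COL7A1 had 0.28 and COL16A1 had 0.36. The 9 collagens below the filter, COL2A1, COL4A3, COL4A4, COL9A1, COL9A2, COL9A3, COL10A1, COL19A1 and COL21A1, read between 1.17 and 110 on the 6 h arrays.

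The 6 h arrays carried 73 probe sets for the 32 collagen genes, and these did not always run the same way. Of 13 genes with more than 1 probe set above the filter, 8 had ratios of a single sign and 5 had both signs (COL1A1, COL3A1, COL5A1, COL6A2 and COL18A1). COL1A1 had 0.91 and 0.90 in its brighter probe sets and -0.11 in a dimmer one, at 4129 in 8-oxoguanine cells and 4451 in mock cells. COL3A1 had 0.69, 0.34 and -0.21, the last in the probe set read at 12 h. In 5 genes, COL3A1, COL5A1 and COL7A1 among them, the brightest probe set at 6 h was another one than at 12 h.

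Each time was set against its own mock. Of the 16 collagen genes kept at both times with the same probe set, 6 had the same sign at 12 h and at 6 h and 10 the opposite sign. The same shares over all probe sets were not counted. COL1A2, COL8A1 and COL16A1, which are among the 16, were near 0 at 12 h and their sign turned in some settings. COL15A1 had a log2 fold change of 1.18 at 12 h and a ratio of -0.16 at 6 h, and COL13A1 had -1.04 at 12 h and 0.03 at 6 h. No test was made of 12 h against 6 h, since they used different array types and the 6 h groups had no replicates.

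Among the genes of the 7 collagen-related lists, 55 passed the filter at 6 h, 8 (14.5%) were higher by 1.5-fold or more and 0 lower, against 3.32% and 5.44% of all probe sets. After quantile normalization 1 was higher, SKIL, a repressor of SMAD proteins, and 1 was lower, SEC23A, against 2.12% and 3.85% of all probe sets. SKIL had 253 in 8-oxoguanine cells and 143 in mock cells, close to the filter limit of 148, and only its 8-oxoguanine signal lay above that limit. It thus entered the counts of higher genes through the 8-oxoguanine array.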

How the data were processed

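Per the submitters' processing notes the authors used MAS5, and they deposited its linear-scale intensity for every probe set of every array. No version of it was named in the sources used here. Each array's mean without the lowest and highest 2% was 500.1 to 500.5. Log2 of the intensity was used with no further scaling. Control probe sets, and probe sets with a mean log2 value below the 40th percentile at 12 h or the 50th at 6 h, were left out.

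For 12 h, 8-oxoguanine and mock arrays were set against each other by limma 3.58.1 under R 4.3.3 (lmFit and trended eBayes), two-sided, with Benjamini-Hochberg adjustment over 5248 probe sets and a threshold of 0.05; the fit was first tested on simulated data. At 6 h no test was made. Other settings tried were quantile normalization, median centring, a stricter filter or none, a constant before log2, no trend, the replicate number as a block, averaged probe sets per gene, and each 12 h array left out.

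The members, lists and limits were chosen with earlier results of these data known. Described array by array were collagens that passed the test and the fibrillar, type IV and type VI chains, with up to 4 called genes of each other list of largest change; P4HA1, SERPINH1, P4HB, PLOD1, BMP1, COL7A1 and COL18A1 were added after their values were seen. Names came from the platform annotation, and sequences from RefSeq (GRCh38.p14).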

Additional observations from a re-analysis of the deposited data

Results flagged for a closer look

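In 5 collagen genes every 12 h comparison of arrays went one way and the 6 h ratio the other, each against its own mock. Of all probe sets tested at 12 h, 33.9% stood without overlap. How many of those had the opposite sign at 6 h was not counted, so the 5 have no background share beside them. The log2 difference of COL15A1 was 1.18 at 12 h and -0.16 at 6 h. That of COL13A1 was -1.04 at 12 h and 0.03 at 6 h, a ratio near 0, and its other 6 h probe sets, both below the filter, had -0.34 and -0.37, the sign seen at 12 h. COL18A1 had -0.39 at 12 h and 0.32 at 6 h, but its other probe set above the filter at 6 h had -0.20, again the sign seen at 12 h. COL4A5 had 0.21 at 12 h and -0.26 at 6 h. COL6A3 had -0.11 at 12 h (limma adjusted p = 0.401), where its groups only touched, and 1.05 at 6 h. Its 6 h ratio was 0.42 after quantile normalization. The 6 h probe sets with a mean signal of 8000 or more, where it lay, had a median of 0.75 as deposited. No test of 12 h against 6 h was made in any of the 5 genes, and only COL15A1 and COL13A1 among them passed the test at 12 h.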

How the results depend on the processing

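COL15A1 and COL13A1 kept their direction and their call in all 14 alternatives, with limma adjusted p from 5.09e-05 to 0.00202 and from 0.00125 to 0.00952. The count of collagens called higher was 1 throughout. The count called lower was 3 after quantile normalization and 2 with a stricter filter, and 1 to 2 when single arrays were left out, where COL7A1 joined without 8-oxoguanine replicate 3 and COL18A1 without mock replicate 2. The median of the collagens was -0.0136 with no filter and -0.13 to -0.073 when single arrays were left out. Of the genes in the 7 lists, 7 were called lower without an intensity trend and 7 to 13 when single arrays were left out, and 5 to 6 higher. Over all probe sets 371 were called without 8-oxoguanine replicate 1, 386 without 8-oxoguanine replicate 2 and 451 without mock replicate 3, against 695 with all arrays. The cause was not tested.

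The sign of COL1A2 turned after quantile normalization (0.012) and when single arrays were left out (-0.11 to 0.079). That of COL9A2 turned after median centring (-0.00177) and quantile normalization (-0.00386) and ranged from -0.15 to 0.15 without single arrays. COL8A1 ranged from -0.12 to 0.045 and COL16A1 from -0.073 to 0.16 without single arrays. At 6 h the median was 0.39 after median centring, 0.053 after quantile normalization and 0.072 with no filter. The count of higher collagens was 0 after quantile normalization and 3 with probe sets averaged per gene. The count of lower ones was 4 with no filter, 0 with a stricter filter and 0 with averaged probe sets, under which COL3A1 was at -0.21.

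With the replicate number as a block, 1 collagen was called higher and 1 lower, as without it, and 513 probe sets were called in all. Of the genes in the 7 lists 6 were called higher and 9 lower. Calls lost with the block were those of P4HA1, SEC23A, LOX, PDGFRB, EFEMP1 and MFAP2, with adjusted p from 0.0538 for EFEMP1 to 0.093 for LOX. Deviations of same-numbered arrays from their group means had correlations of 0.0757, -0.149 and -0.0503. With so few arrays per group these values cannot settle whether same-numbered extracts were handled together, and the labels do not say.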

Other observations

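A pair of neighbouring matrix lists was read after the collagen values were seen, and no list test was made. Of the basement membrane partners, the laminins, nidogens and perlecan among them, 7 passed the filter at 12 h, 0 were called higher by limma (1 at an unadjusted p under 0.05) and 1 lower, so that 14.3% were called, near the 13.2% of all probe sets, and the median log2 fold change was -0.09. The one was nidogen-2 (NID2), which links laminin to type IV collagen. It read 1235, 1083 and 1256 on 8-oxoguanine arrays, against 2110, 2264 and 1950 on mock arrays (log2 fold change -0.82, limma adjusted p = 0.000435), and kept its call in 14 other settings. Its homologue NID1 was at -0.09 (limma adjusted p = 0.669). At 6 h NID2 had 1610 in 8-oxoguanine cells and 1413 in mock cells (log2 ratio 0.19, opposite in sign to 12 h), NID1 had 1021 in 8-oxoguanine cells and 1590 in mock cells, and HSPG2, perlecan, had 1608 in 8-oxoguanine cells and 1013 in mock cells.

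Of the elastic fibre genes 14 passed the filter at 12 h, 3 rose and 1 fell, so that 28.6% were called, against 13.2% of all probe sets. FBLN1 (fibulin-1) had a log2 fold change of 0.38 (limma adjusted p = 0.00896), EFEMP1 and EFEMP2 (fibulin-3 and fibulin-4) had 0.43 and 0.31, and the microfibril protein MFAP2 had -0.43. Of these 4, none kept its call when each array in turn was left out. The median of the 14 was 0.18, against 0.0072 over all probe sets. The groups did not overlap in 11 of them (78.6%, against 33.9% of all probe sets). Of the 11, 8 were higher (57.1%, against 17.4%) and 3 lower (21.4%, against 16.5%). LTBP4, the largest change at 1.18, was not called (limma adjusted p = 0.114). It read 185, 175 and 223 on 8-oxoguanine arrays and 126, 35.4 and 138 on mock arrays. The mean log2 signal of its mock arrays lay below the filter limit, so it entered these counts through the 8-oxoguanine arrays.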
